A study of Homo sapiens with 10 samples.

Results

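HER2 is the receptor tyrosine kinase encoded by ERBB2, and the cytogenetic band 17q12 that carries it is the stretch of chromosome 17 gained in HER2-positive breast cancer. Genes beside ERBB2 are gained with it, among them the adaptor GRB7, which binds the activated receptor, and STARD3, a cholesterol transfer protein of late endosomes. Acetylation of histone H3 at lysine 27 (H3K27ac) marks active promoters and enhancers, and long, densely marked stretches are a known feature of genes that a cell uses heavily.

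The H3K27ac peaks over 10 genes of the HER2 amplicon were taken from the peak lists of 8 ChIP-seq libraries. The genes were the named members ERBB2, GRB7, STARD3, PGAP3, MIEN1, CDK12, PPP1R1B, IKZF3, MED1 and TCAP, 10 of the 19962 protein-coding genes of the annotation. A window was a gene body with 5 kb on each side, and the stretch that held all 10 windows ran from 5 kb before MED1 to 5 kb after IKZF3 (hg38, chr17:39399285-39869312, 470.0 kb). The libraries came from SKBR3 and MDA-MB-453, both established human breast cancer lines with HER2. All cells were starved of serum for 8 h, and the TWEAK groups then received 10 ng/ml of the cytokine TWEAK, the ligand of the receptor Fn14, for 48 h with a fresh dose at 24 h. Each of the 4 groups (SKBR3 untreated, SKBR3 with TWEAK, MDA-MB-453 untreated, MDA-MB-453 with TWEAK) had 2 libraries. A comparison of the lines is thus 1 line against 1 line, with 4 libraries each.

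Each list held 43684 to 51687 peaks in SKBR3 and 36148 to 37813 in MDA-MB-453. Of 9 epithelial and luminal marker genes, 6 had a peak at their start in every SKBR3 list and 8 in every MDA-MB-453 list. CDH1 had a start peak in 0 of 4 SKBR3 lists, and ESR1 in 1 of 4 lists of each line. Among 3 basal genes KRT14 had none in any list, KRT5 had one in 2 SKBR3 lists and 0 MDA-MB-453 lists, and TP63 in 1 and 4. The mesenchymal gene VIM had one in 3 and 4 lists, and the endothelial PECAM1 and the blood cell genes PTPRC and CD3E in none. Depth is unknown, since the lists hold no read counts. The input libraries were not analysed here, so the number of gene copies and the acetylation of each copy cannot be told apart in any value that follows.

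Each peak has 3 properties that the results turn on. The fold enrichment is the ratio of ChIP signal to background over the peak, averaged over its whole width. The -log10 q is the significance of the peak, also given over its whole width. At a given ratio the -log10 q is larger when more reads lie behind the peak. The width is the number of bases that the caller joined into 1 peak. In these lists the 3 properties did not order the lines in the same way over 17q12.

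The promoters of 4 genes with contrasting peaks are printed because each lay under a peak in all 8 lists. ERBB2 is shown at its canonical start, under the tallest peak of the stretch in MDA-MB-453, in the 162 bases upstream that no annotated exon covers (hg38, chr17:39699814-39699975, plus strand). MED1, whose start peak had a similar width in both lines, is shown from chr17:39451273-39451513 on the minus strand. STARD3 is shown from chr17:39636894-39637089 on the plus strand. Its window was higher in SKBR3 by every property. The peak at this start had a lower fold enrichment there (4.21 to 5.02 against 7.65 to 9.39). MIEN1, which lies at the end of ERBB2 on the other strand, is shown from chr17:39730533-39730782 on the minus strand. The last 3 are from RefSeq (GRCh38.p14). All are written 5′ to 3′, with matches to the motifs named after them in capitals.
ERBB2: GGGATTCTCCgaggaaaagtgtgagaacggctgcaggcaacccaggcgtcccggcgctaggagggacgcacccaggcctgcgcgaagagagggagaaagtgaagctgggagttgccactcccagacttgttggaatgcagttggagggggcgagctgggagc
MED1: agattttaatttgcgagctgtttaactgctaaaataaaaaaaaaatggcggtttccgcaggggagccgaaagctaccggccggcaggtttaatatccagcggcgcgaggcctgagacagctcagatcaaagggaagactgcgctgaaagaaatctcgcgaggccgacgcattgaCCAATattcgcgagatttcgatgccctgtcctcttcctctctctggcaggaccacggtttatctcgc
STARD3: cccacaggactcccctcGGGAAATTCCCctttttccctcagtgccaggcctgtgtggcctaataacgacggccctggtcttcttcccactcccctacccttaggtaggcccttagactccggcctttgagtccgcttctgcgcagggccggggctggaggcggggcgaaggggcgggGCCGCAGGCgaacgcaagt
MIEN1: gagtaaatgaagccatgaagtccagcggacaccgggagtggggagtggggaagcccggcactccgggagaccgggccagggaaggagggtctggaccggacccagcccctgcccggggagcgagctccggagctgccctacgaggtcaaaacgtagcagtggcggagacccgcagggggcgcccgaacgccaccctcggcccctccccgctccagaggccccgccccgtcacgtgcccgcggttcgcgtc

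The RefSeq table gave a promoter for 6 of the 10 members (MED1, CDK12, STARD3, PGAP3, ERBB2 and MIEN1), and 6 motifs were searched on both strands of the 250 bases before the start. The NF-κB motif, bound by the factor that TWEAK signalling is known to activate, matched 1 of 6 (STARD3), and 4.99% of all 27195 promoters held it. The first bases of the ERBB2 sequence above matched it as well. GCCNNNGGC, bound by AP-2, matched only STARD3 of the 6, and 19.5% of all promoters held it. CCAAT (NF-Y) matched MED1 and the RefSeq start of ERBB2, against 32.6% of all promoters. It also matched at -78 to -74 from the canonical ERBB2 start, outside the printed bases. CCGGAAG (ETS) matched STARD3, PGAP3 and the RefSeq start of ERBB2, against 8.74%. PGAP3 and the upstream RefSeq start of ERBB2 face away from each other, and their windows overlap at the 2 ETS matches. The AP-1 motif (TGACTCA or TGAGTCA) and TATAAA matched 0 of 6 promoters, against 4.35% and 11.4% of all. Apart from the 2 NF-κB matches of STARD3, which overlap on opposite strands, no matches in the printed sequences overlapped. The GC content of the 6 windows ran from 48.8% in CDK12 to 72.0% in MIEN1, around a median of 57.6% over all promoters.

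The question of the lines was how H3K27ac over 17q12 compares between 2 lines that both carry HER2. Peaks covered 2.94 times as much of the stretch in SKBR3 as in MDA-MB-453, at 0.467 times the mean unscaled fold enrichment. Over the whole genome the SKBR3 lists also covered more, 92.1 to 106 Mb against 70.5 to 72.1 Mb. Per Mb covered in its list the stretch still had 732 covered bases more in SKBR3 (exact permutation p = 0.0286). The covered length was 150 kb and 124 kb in the untreated SKBR3 libraries and 140.0 kb and 115 kb in those with TWEAK. It was 43.0 kb and 44.9 kb in untreated MDA-MB-453 and 47.3 kb and 45.2 kb with TWEAK. Every SKBR3 library lay above every MDA-MB-453 library, and the lines differed by 87.3 kb (132 ± 15.6 kb against 45.1 ± 1.79 kb, SD, n = 4 each, exact two-sided permutation test, p = 0.0286, the smallest possible, adjusted p = 0.0381 over 8 measures). The number of peaks did not order the lines, with 17 to 23 in SKBR3 and 15 to 20 in MDA-MB-453 (exact permutation p = 0.514).

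The mean fold enrichment per covered base ran the other way. It was 9.73, 13.7, 11.5 and 10.4 in SKBR3 (untreated 1 and 2, then TWEAK 1 and 2) and 26.8, 25.1, 23.1 and 22 in MDA-MB-453. No SKBR3 value reached the lowest MDA-MB-453 value, and the difference was -1.11 on the log2 scale (exact permutation p = 0.0286, adjusted p = 0.0381). Width times fold enrichment, summed over the stretch, was higher in SKBR3 by 0.44 on the log2 scale, with no overlap (same p and adjusted p by the exact permutation test). The highest -log10 q of the stretch overlapped between the lines, at 302 to 1035 in SKBR3 and 618 to 960 in MDA-MB-453 (exact permutation p = 0.2, adjusted p = 0.229).

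**Figure D1:**
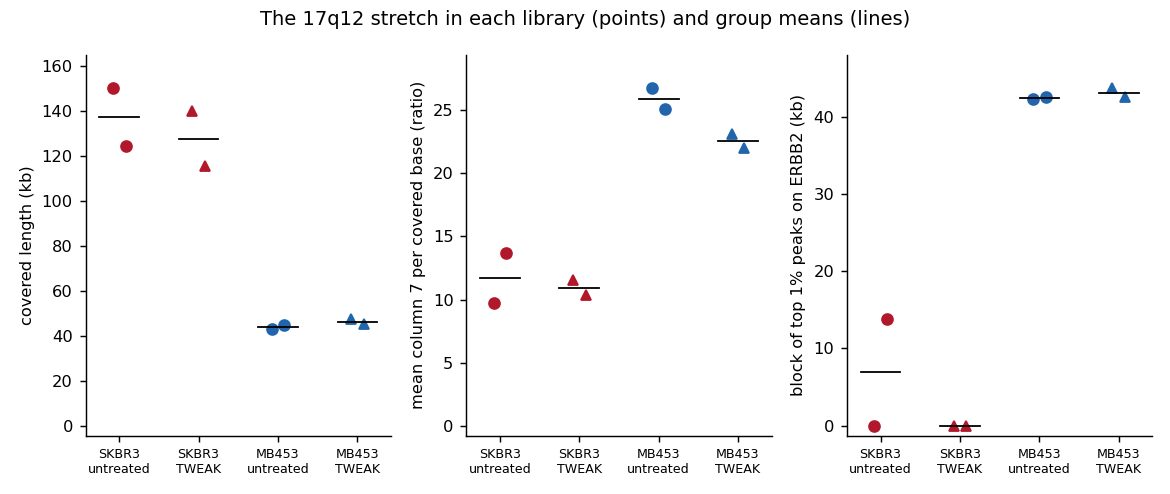
Covered length in kb (left), mean fold enrichment (column 7 of the lists) per covered base as a ratio (middle) and length in kb of the block of top 1% peaks on ERBB2 (right) for each library of the 4 groups, with lines at the group means. Covered length is 115 to 150 kb in SKBR3 and 43.0 to 47.3 kb in MDA-MB-453, and the mean fold enrichment shows the opposite order.

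SKBR3 covered most of the places that MDA-MB-453 did, and more besides. MDA-MB-453 peaks of any list lay on 53.6 kb, of which 48.1 kb was covered in all 4 SKBR3 lists, while SKBR3 peaks of any list lay on 156.6 kb. Of all bases of the stretch, 8.07% lay under a peak in all 8 lists, 12.2% were covered throughout SKBR3 but nowhere in MDA-MB-453, and 0.139% throughout MDA-MB-453 but nowhere in SKBR3. The last class was a single run of 651 bases inside CDK12 (chr17:39533521-39534171). The bases shared by all 8 lists fell into 14 runs, among them the starts of MED1, CDK12, STARD3, PGAP3, ERBB2, MIEN1 and GRB7. The longest shared run, 9599 bases, covered the canonical ERBB2 start (chr17:39698979-39708577). The longest runs called in SKBR3 alone were 5734 bases from the end of STARD3 over TCAP (chr17:39661215-39666948) and 5121 bases in the body of ERBB2 (chr17:39718617-39723737).

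**Figure D2:**
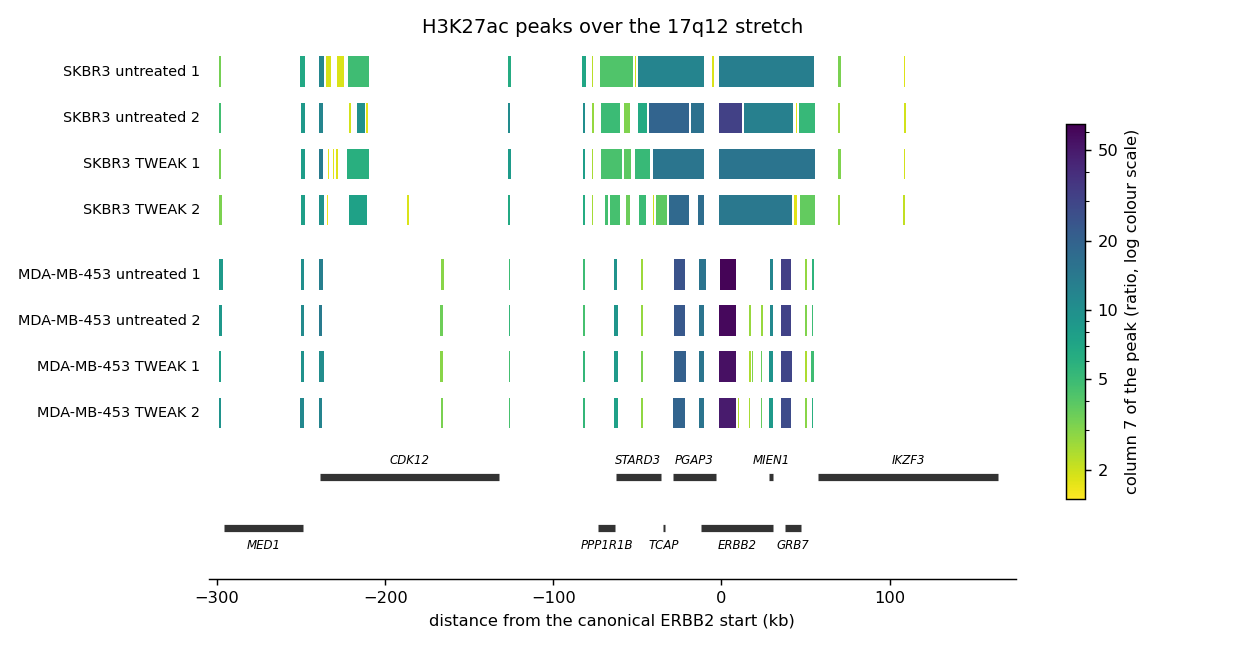
Peaks of the 8 lists over the stretch by distance in kb from the canonical ERBB2 start, 1 row per library, coloured by fold enrichment (column 7, log colour scale), with the 10 gene bodies below. In SKBR3 wide peaks join the end of STARD3 to PGAP3 in 3 lists, all but TWEAK 2, and parts of ERBB2 to GRB7 in all 4, while MDA-MB-453 has separate narrow peaks, of which the one at the ERBB2 start reaches 49.7 to 63.0.

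All 10 members passed the filter of a peak in at least 2 of 8 lists. Between the lines 64.8% of the 15666 gene windows tested differed in their highest fold enrichment (33.2% higher in SKBR3 and 31.6% higher in MDA-MB-453), so a call is common anywhere in the genome. Of the members 7 of 10 were called, STARD3 and TCAP higher in SKBR3 and PPP1R1B, PGAP3, ERBB2, MIEN1 and GRB7 higher in MDA-MB-453. The median difference of the members was -0.25 on the log2 scale, beside 0.01 over all windows. The highest -log10 q was scaled between libraries as the fold enrichment was. By it 68.6% of windows were called, 34.7% higher and 33.9% lower in SKBR3. Of the members 8 of 10 were higher in SKBR3 and 0 lower, with a median of 1.87 beside 0.00 over all windows. As listed, the lines overlapped at PPP1R1B (32.9 to 53.4 in SKBR3 against 41.5 to 64.7). They also overlapped at MIEN1 and GRB7 (both 302 to 418 against 272 to 375). By covered length, where 67.3% of windows were called and 38.2% were higher and 29.1% lower in SKBR3, 9 of 10 were higher in SKBR3 and 0 lower, with a median of 1.997 beside 0.08. The measures by -log10 q and covered length were added after the fold enrichment had been seen. Neighbouring windows share peaks, so the 10 members are not 10 independent readings.

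**Figure D3:**
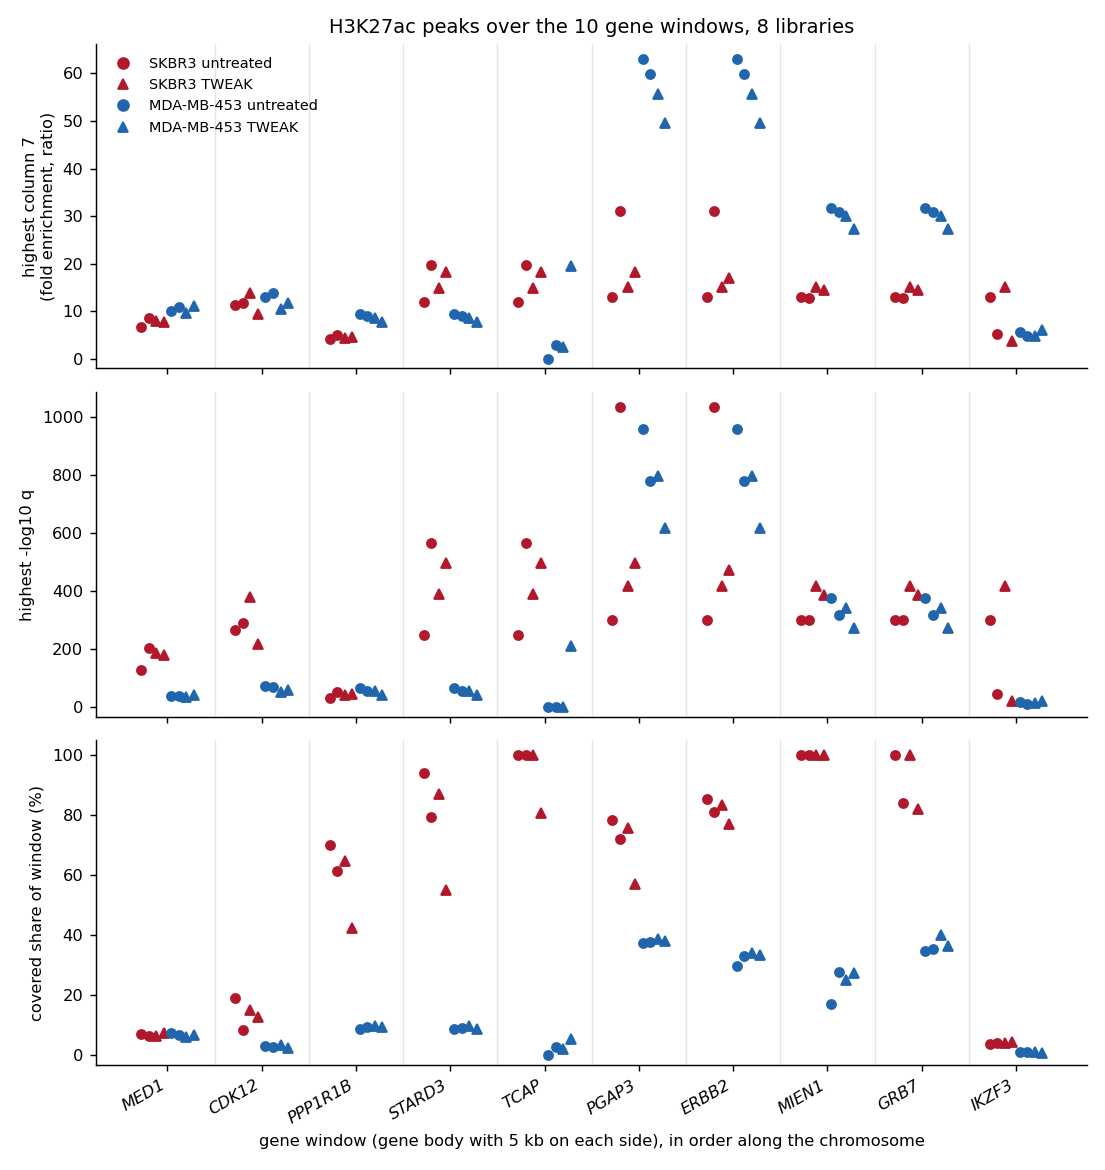
Highest fold enrichment (column 7, ratio, top), highest -log10 q (middle) and covered share of the window in % (bottom) for the 10 gene windows in order along the chromosome, 1 point per library. MDA-MB-453 is higher at PGAP3, ERBB2, MIEN1 and GRB7 in the top panel, and SKBR3 covers more of every window except MED1 in the bottom panel.

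ERBB2 had opposite calls by fold enrichment and by covered length. Its highest fold enrichment was 13.1 and 31.2 in untreated SKBR3, 15.2 and 17.1 with TWEAK, 63.0 and 60.0 in untreated MDA-MB-453, and 55.6 and 49.7 with TWEAK. The lines did not overlap, and the peak in MDA-MB-453 was 2.35-fold higher on the log2(scaled value + 1) scale (log2 difference -1.23, SE 0.20, limma, adjusted p = 0.00263). By within-list percentile the call was lost (-2.50 percentile points, adjusted p = 0.137), as was that of PGAP3 (-2.40, adjusted p = 0.161). In each MDA-MB-453 list this peak ranked 3 by fold enrichment and 2 by -log10 q. In SKBR3 the best rank of any peak in the stretch was between 93 and 1999 by fold enrichment, but between 1 and 9 by -log10 q.

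The shape of the ERBB2 peak differed with the fold enrichment. It was 9599, 10097, 10234 and 10133 bases wide in the 4 MDA-MB-453 lists. In SKBR3 untreated 1 and TWEAK 1 a single peak of 56897 and 57072 bases ran from the ERBB2 start past MIEN1 and GRB7 into the IKZF3 window, and in TWEAK 2 a peak of 43494 bases ran from the ERBB2 start into GRB7 at a fold enrichment of 14.4. The 17.1 of that list belonged to a separate peak of 3754 bases at the PGAP3 start, within the ERBB2 window. In SKBR3 untreated 2 the same stretch was split, with 13821 bases at the ERBB2 start and 28899 bases beyond. This split list gave the highest ERBB2 fold enrichment of the 4 SKBR3 lists (31.2) and the rank of 93. Peaks covered 77.3% to 85.5% of the ERBB2 window in SKBR3 and 29.9% to 34.3% in MDA-MB-453 (log2 difference in covered length 1.32, SE 0.08, limma, adjusted p = 4.55e-05). Its highest -log10 q gave no call (scaled log2 difference 0.11, SE 0.26, limma, adjusted p = 0.728). This value also came from peaks of unlike width. In SKBR3 it was 302 over 56897 bases in untreated 1 and 1035 over 13821 bases in untreated 2. Since the fold enrichment is an average over a peak, the width of the SKBR3 peaks and their lower level moved together, and their separate parts in the difference were not tested.

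PGAP3, an enzyme that remodels the lipid anchor of membrane proteins, lies head to head with ERBB2 and shares its tallest peak. Its window values were those of ERBB2 in all but 1 list, and its log2 difference was -1.21 (SE 0.20, limma, adjusted p = 0.00318). The peaks at its own canonical start gave a different picture, with 11.9, 15.9, 14.98 and 17.1 in SKBR3 and 15.2, 15.2, 15.05 and 15.2 in MDA-MB-453. There the lines overlapped before scaling. Within 1 kb of its starts the scaled log2 difference was 0.36 and called higher in SKBR3 (limma, adjusted p = 0.0136), and over the gene body alone it was -0.09 and not called (adjusted p = 0.525). In SKBR3 these start peaks were 3754 to 39545 bases wide, against 3009 to 4171 in MDA-MB-453.

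GRB7 and MIEN1, a small membrane-anchored protein known for its part in cell migration, took their highest value from the same peak in every list. It was 13.1, 12.8, 15.2 and 14.4 in SKBR3 and 31.7, 30.9, 30.04 and 27.4 in MDA-MB-453. The lines did not overlap (log2 difference -0.70, SE 0.09, limma, adjusted p = 0.00104). For GRB7 the peak lay on its start in all 8 lists. For MIEN1 the MDA-MB-453 value belonged to the GRB7 peak, and the peak at the MIEN1 start was lower, at 11.5, 11, 9.25 and 8.52, below all 4 SKBR3 values. Within its gene body alone MIEN1 was higher in SKBR3 by 0.78 on the log2 scale. The SKBR3 lists covered all of the MIEN1 window, against 17.03% to 27.7% in MDA-MB-453.

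STARD3 and PPP1R1B, the latter an inhibitor of protein phosphatase 1, lie side by side upstream of PGAP3. Both took 9.39, 9.08, 8.5 and 7.65 from 1 shared peak of 1774 to 1934 bases at the STARD3 start in MDA-MB-453. STARD3 was higher in SKBR3, at 11.9, 19.7, 14.98 and 18.2, with no overlap (log2 difference 1.16, SE 0.12, limma, adjusted p = 0.000456). In all SKBR3 lists but TWEAK 2 those values came from the wide peak over the end of the gene and TCAP. In TWEAK 2 the 18.2 came from a peak beyond both genes (chr17:39668736-39680862), which reached only the margin of the STARD3 window. The peak at the STARD3 start in SKBR3 had 4.21, 5.02, 4.45 and 4.55. Without the 5 kb margin, and within 1 kb of the starts, the STARD3 call was lost (log2 differences 0.73 and 0.77). PPP1R1B had 4.21, 5.02, 4.45 and 4.65 in SKBR3 and was called lower there (log2 difference -0.46, SE 0.07, limma, adjusted p = 0.00154), although SKBR3 peaks covered 42.4% to 70.1% of its window against 8.92% to 9.72% in MDA-MB-453. No list had a peak at the canonical start of PPP1R1B.

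TCAP encodes telethonin, a protein of the sarcomere of striated muscle. Its window lay wholly under peaks in 3 of 4 SKBR3 lists and to 81.0% in the other, SKBR3 TWEAK 2, with fold enrichments of 11.9, 19.7, 14.98 and 18.2. In MDA-MB-453 it was listed at 0 in untreated 1, at 2.83 and 2.53 in untreated 2 and TWEAK 1, and at 19.6 in TWEAK 2. The last value came from the PGAP3 peak, which among the MDA-MB-453 lists reached into the end of the TCAP window in that list alone. The 18.2 of SKBR3 TWEAK 2 also came from a peak beyond the gene (chr17:39668736-39680862). In that list the peak at the TCAP start had 3.90. The call (log2 difference 2.33, SE 0.65, limma, adjusted p = 0.0222) was lost without SKBR3 untreated 1, untreated 2 or TWEAK 2 and without MDA-MB-453 untreated 1, with log2 differences of 1.87 to 2.44.

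MED1 and CDK12 lie at the centromeric end. MED1 is a subunit of Mediator, which links transcription factors to RNA polymerase II, and CDK12 phosphorylates the polymerase. The MED1 start peak was 2285 to 2599 bases wide in SKBR3 and 2018 to 2745 in MDA-MB-453, so here the lines can be compared at similar widths. Its fold enrichment was 6.77, 8.54, 8.06 and 7.83 in SKBR3 and 10.0, 10.9, 9.54 and 11.1 in MDA-MB-453. After scaling of the libraries the log2 difference was -0.03 (SE 0.08, limma, adjusted p = 0.722). Without scaling it was -0.37 and called lower in SKBR3 (adjusted p = 0.0172), and the unscaled values did not overlap. The -log10 q of this same peak was 128, 203, 187 and 181 in SKBR3 and 36.9, 38.1, 35.0 and 40.2 in MDA-MB-453 (scaled log2 difference 2.90, SE 0.14, limma, adjusted p = 5.85e-06). At a similar width, and a ratio that was lower before scaling and not called after it, the SKBR3 peak was 7.49-fold higher in significance on the log2(scaled value + 1) scale. Of all windows 4.62% were called higher in SKBR3 by scaled -log10 q but not by scaled fold enrichment. So were 6 of 10 members (MED1, CDK12, PPP1R1B, MIEN1, GRB7 and IKZF3).

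The CDK12 start peak had fold enrichments of 11.4, 11.7, 13.8 and 9.53 in SKBR3 and 13.0, 13.8, 10.4 and 11.8 in MDA-MB-453, which overlapped (scaled log2 difference 0.27, SE 0.12, limma, adjusted p = 0.0868). The difference was called without SKBR3 TWEAK 2 (0.37), by within-list percentile (adjusted p = 0.0376), with a peak required in all 8 lists (adjusted p = 0.0490) and with a replicate block (adjusted p = 0.0177), and it was -0.08 without scaling, not called. Its -log10 q was 266, 291, 378 and 219.5 in SKBR3 and 74.1, 70.7, 53.4 and 57.4 in MDA-MB-453, with no overlap (log2 difference 2.89, SE 0.20, limma, adjusted p = 3.08e-05). SKBR3 also carried a second peak of 4757 to 12954 bases inside the gene body, and peaks covered 8.38% to 19.3% of the CDK12 window there against 2.57% to 3.61% in MDA-MB-453.

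IKZF3, a zinc-finger transcription factor of lymphoid cells, had no peak at its start in any list. Peaks covered 3.77% to 4.41% of its window in SKBR3 and 0.81% to 1.16% in MDA-MB-453. Its highest fold enrichments of 13.1 and 15.2 in SKBR3 untreated 1 and TWEAK 1 belonged to the ERBB2 to GRB7 peak, which ended within the 5 kb margin. The other SKBR3 lists had 5.17 and 3.71, and MDA-MB-453 had 5.59, 4.89, 4.81 and 6.05. The lines overlapped and the difference was not called (log2 difference 0.84, SE 0.48, limma, adjusted p = 0.168), but it was 1.27 and called without SKBR3 TWEAK 2. Over the gene body alone, without the margin that the ERBB2 to GRB7 peak reaches, it was 2.12 and called (limma, adjusted p = 1.75e-05), and it was called with a replicate block (adjusted p = 0.00465). Within the gene body the highest SKBR3 values were only 3.22, 2.66, 3.09 and 2.75, and no MDA-MB-453 list had a peak. In covered length IKZF3 was called higher in SKBR3 (log2 difference 1.97, SE 0.13, limma, adjusted p = 5.69e-05).

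The second question was where the block of strong enrichment around ERBB2 ends. With a block made of peaks in the top 1% of their list by fold enrichment, joined over gaps of up to 50 kb, 1 of 4 SKBR3 lists had a block, of 13.8 kb over the ERBB2 start in untreated 2. All 4 MDA-MB-453 lists had one of 42.3 to 43.7 kb that began between chr17:39698534 and chr17:39698979, just upstream of the canonical ERBB2 start, and ended between chr17:39741170 and chr17:39742196 within GRB7. The lines differed by -39.3 kb (exact permutation p = 0.0286, adjusted p = 0.0381). The sign depended on the rule. With the top 5% the SKBR3 block ran for 55.6 to 105 kb and the MDA-MB-453 block for 69.4 to 70.4 kb, from PGAP3 to GRB7, a difference of 12.8 kb. Ranked by the p-value column in place of fold enrichment the blocks were 73.4 to 169.4 kb and 69.4 to 70.4 kb, a difference of 41.2 kb.

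Because the best SKBR3 17q12 peaks ranked higher in their lists by significance than by ratio, a further measure was set up after these values were seen. For each peak the -log10 q was divided by the median of the 500 peaks nearest in fold enrichment in the same list, and the log2 of this quotient is 0 where a peak is as significant as others of its ratio. It is a description without a test. The median over the MED1 window was 2.80 to 2.90 in SKBR3, against -0.03 to 0.02 in MDA-MB-453. Over ERBB2 it was 2.78 to 2.87 in SKBR3 and 0.77 to 1.17 in MDA-MB-453, over PGAP3 2.75 to 2.87 and 1.21 to 1.31, and over PPP1R1B 2.26 to 2.83 and 1.17 to 1.23.

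By this measure the edges lay elsewhere than by fold enrichment, and they differed between the lines. On the centromeric side SKBR3 stood at -0.11 to -0.05 over FBXO47 and at 1.57 to 3.22 over the next gene of the flanking list, PLXDC1, and it stayed raised over CACNB1, RPL19, STAC2, FBXL20 and MED1. Over CDK12, which holds several small peaks of low ratio, the SKBR3 lists spread from -0.01 to 1.82. In MDA-MB-453 PLXDC1 stood at 0.25 to 0.34, FBXL20 at -0.27 to -0.24, CDK12 at 0.34 to 0.41, and PPP1R1B, at 1.17 to 1.23, was the first gene above 1. On the telomeric side MDA-MB-453 was at 0.94 to 1.03 over PSMD3, a proteasome subunit, at 0.39 to 0.64 over MED24, and at -0.14 to 0.05 over THRA, the next gene. SKBR3 fell off unevenly. It stood at 1.25 to 1.53 over LRRC3C, 1.84 to 1.96 over PSMD3, 0.19 to 1.47 over CSF3 and 0.45 to 1.90 over NR1D1. Further out it was 0.72 to 1.17 over TOP2A, the topoisomerase of dividing cells. Over SMARCE1, the last gene listed, it was 1.08 to 1.15.

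In quarter-megabase bins the lines again differed in how far they were raised. From 39 to 39.25 Mb the median quotient was 2.02 to 2.95 on the log2 scale in SKBR3 and 0.29 to 0.38 in MDA-MB-453. From 39.25 to 39.75 Mb the median quotient was 2.36 to 2.62 on the log2 scale in SKBR3 (5.14 to 6.15 times the significance of peaks of equal ratio) and 0.57 to 0.98 in MDA-MB-453. From 39.75 to 40 Mb it was 1.46 to 1.70 and 0.79 to 0.90. From 40 to 42.25 Mb it was 0.76 to 0.84 in SKBR3 and -0.25 to -0.19 in MDA-MB-453. From 42.5 to 45 Mb the median of both lines was below 0, although the bin at 44.5 Mb stood at 0.21 to 0.22 in MDA-MB-453. Apart from SKBR3 at 39 to 39.25 Mb, the 4 libraries of a line ran close together over these segments. The bounds of the segments were chosen after the bins were seen. Between the first and last peak where the running median of 5 peaks stayed above 0.5, the block around ERBB2 was 478 to 506 kb long in MDA-MB-453, starting within CDK12, while in SKBR3 it varied from 575 to 2244 kb between lists.

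**Figure D4:**
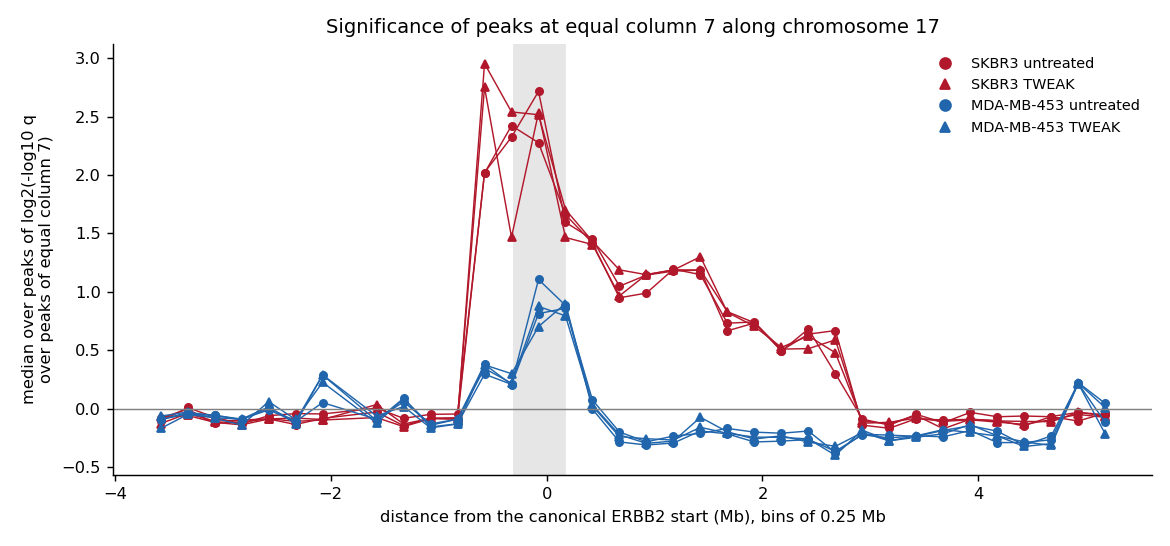
Median over peaks of the log2 quotient of -log10 q over that of peaks of equal fold enrichment (column 7), in bins of 0.25 Mb by distance in Mb from the canonical ERBB2 start, 1 line per library and the stretch of the 10 members shaded. SKBR3 is raised on both sides of the shaded stretch and falls unevenly to the right, while MDA-MB-453 is raised over a shorter part.

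The genes beside the stretch followed these edges. The 21 telomeric neighbours tested ran from GSDMB to SMARCE1. Of these 19 were higher in SKBR3 by scaled -log10 q and 0 lower, beside 34.7% and 33.9% of all windows. By fold enrichment 10 were higher and 2 lower (CSF3 and THRA), beside 33.2% and 31.6% of all windows, and by covered length 15 were higher and 3 lower, beside 38.2% and 29.1%. Of 17 centromeric neighbours 9 were higher and 8 lower by scaled -log10 q, 8 and 8 by fold enrichment and 10 and 4 by covered length. Among the genes called by scaled -log10 q, the listed values overlapped at FBXL20, at 12.9 to 32.5 in SKBR3 and 17.4 to 21.9 in MDA-MB-453. They also overlapped at PIP4K2B and, on the telomeric side, at MED24, THRA, NR1D1, GJD3 and CCR7. The 8 lower ones by -log10 q (SOCS7, SRCIN1, CISD3, PCGF2, PSMB3, CWC25, LASP1 and RPL23) all lay on the far side of FBXO47, and the neighbours from PLXDC1 to FBXL20 were all higher, as were MLLT6, PIP4K2B and FBXO47. Of 15 genes of HER2 signalling elsewhere in the genome, 2 were higher in SKBR3 and 5 lower by fold enrichment, 2 and 10 by -log10 q and 6 and 4 by covered length. The tyrosine kinase SRC was higher by all 3 measures and the adaptor GRB2 and the kinase subunits PIK3CA and PIK3R1 lower by all 3.

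The place of the 17q12 peaks in their lists also differed by line. Of the 100 peaks with the lowest fold enrichment of a list, 4 to 6 lay in this stretch in SKBR3 and 0 to 1 in MDA-MB-453, although the stretch held only 0.0375% to 0.0531% of the peaks of a list. Of the 100 peaks with the highest -log10 q, 3 to 6 lay there in SKBR3 and 2 to 3 in MDA-MB-453. The widest peak of the stretch ranked 5 to 51 by width in SKBR3 and 311 to 362 in MDA-MB-453. Outside chromosome 17 from 30 to 50 Mb, the 5 genes whose fold enrichment over the 8 libraries was nearest to that of ERBB2 were LMNA, RHOH, IL17REL, SEPTIN9 and CD9, at Euclidean distances of 0.78 to 0.94 on the log2 scale. In covered length the line difference of these 5 ran from -0.45 (RHOH) to 2.94 (SEPTIN9), beside 1.32 for ERBB2.

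The study's own question was the effect of TWEAK. By highest fold enrichment 2.21% of windows were called with TWEAK in SKBR3, 0.389% in MDA-MB-453 and 2.06% for the interaction of line and TWEAK, and 0 of 10 members were called in any of the 3 (limma). At an unadjusted p under 0.05 the shares were 10.7%, 2.32% and 7.49% of windows, and the members again numbered 0. By -log10 q, where 2.53%, 0.0766% and 1.1% of windows were called in the same order (12.5%, 2.26% and 8.32% at an unadjusted p under 0.05), 0 of 10 members were called and 0 passed the unadjusted threshold. By covered length, where 2.37%, 0.204% and 1.37% were called (13%, 2.96% and 8.96% unadjusted), the members numbered 0 in both ways as well. Among the flanking genes MLLT6 was called higher with TWEAK in SKBR3 by fold enrichment, on the far side of FBXO47. By covered length CSF3 was called lower with TWEAK in SKBR3 and for the interaction.

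For ERBB2 the TWEAK difference on the log2 scale was -0.32 (SE 0.28, limma, adjusted p = 0.731) in SKBR3 and -0.18 (SE 0.28, adjusted p = 1) in MDA-MB-453. The SKBR3 values with TWEAK, 15.2 and 17.1, lay between the untreated 13.1 and 31.2. In MDA-MB-453 both TWEAK values of scaled fold enrichment lay below both untreated values at 7 of 10 members (CDK12, PPP1R1B, STARD3, PGAP3, ERBB2, MIEN1 and GRB7). Of all windows 19.3% did so, and the 7 member windows drew on only 4 peaks. By covered length in that line both TWEAK values lay above both untreated values at PGAP3, ERBB2 and GRB7 and below them at MED1. No share of all windows is given beside these. The largest TWEAK difference among the members, 2.06 at TCAP in MDA-MB-453 (SE 0.92, limma, adjusted p = 1), rested on the PGAP3 peak in 1 library.

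Over the stretch the covered length differed by -9.59 kb with TWEAK in SKBR3 (exact permutation p = 0.667) and by 2.32 kb in MDA-MB-453 (p = 0.333). With 2 libraries against 2, p = 0.333 is the smallest that the exact test allows. The mean fold enrichment in MDA-MB-453 was 26.8 and 25.1 untreated and 23.1 and 22 with TWEAK, without overlap (log2 difference -0.20, exact permutation p = 0.333, adjusted p = 0.533 over 8 measures). Few bases separated the treatments. In SKBR3 1546 bases were covered in both untreated lists and neither TWEAK list, of which a run of 1290 bases lay within STARD3 (chr17:39657786-39659075), and 65 bases were covered in both TWEAK lists only. In MDA-MB-453 the figures were 770 and 759 bases.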

How the data were processed

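The peak lists of 8 H3K27ac ChIP-seq libraries were analysed. The authors trimmed reads with Trimmomatic, mapped them to hg38 with Bowtie2, called peaks per library with MACS2 against input, and removed blacklisted regions with bedtools. Versions and calling options are not given in the sources used here. Each deposited list gives a whole-number score (not used here), a fold enrichment ratio (column 7) and, for p-value and q-value, their −log10, in 9 columns with no summit. The deposited −log10 values were used as listed. All 334849 peaks fell within hg38 chromosomes.

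Gene windows came from GENCODE 44 (protein-coding, chromosomes 1 to 22 and X). The highest fold enrichment of any peak overlapping a window by 1 bp was scaled so that windows with a peak in all 8 lists had equal medians, and log2(value + 1) was fitted with limma 3.58.1 (R 4.3.3) over 15666 windows, 4 group means, Benjamini-Hochberg adjusted p under 0.05. The highest -log10 q was scaled and fitted in the same way. Covered length used log2(bp + 100) without scaling. The fit was tested on simulated data. Stretch measures used exact permutation tests. Named were all members, the flanking genes at block edges or past the line test, and the 5 nearest profiles. The members and lists were chosen with earlier results of these data known. The study's methods call libraries biological replicates, of 1 line each. For peaks at the top of a list, most of the 500 neighbours in fold enrichment lie below.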

Additional observations from a re-analysis of the deposited data

How the results depend on the processing

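The direction and call of the covered length and the mean fold enrichment held between the lines under every alternative run. The number of members called between the lines was 6 to 9 of 10 (main 7), but not in 1 direction. By fold enrichment 2 were higher and 5 lower in SKBR3, by scaled -log10 q 8 and 0, and by covered length 9 and 0. Under every alternative 0 members were called with TWEAK. Without 1 library at a time the line difference was 81.4 to 93.0 kb in covered length and -1.20 to -1.04 in log2 mean fold enrichment, and TWEAK differences in covered length were -22.5 to 3.30 kb in SKBR3 and 1.26 to 3.38 kb in MDA-MB-453. The block around ERBB2 (main -39.3 kb) was -6.56 kb with the top 0.5% and with a gap of 20 kb, 12.8 kb with the top 5%, 41.2 kb ranked by the p-value column and 723 kb by significance at equal fold enrichment, which was added after seeing the data, and -42.8 to -38.2 kb without 1 library.

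Windows called with TWEAK in SKBR3 (main 346) numbered 95 with a peak required in all 8 lists and 292 to 708 without 1 library (542 without untreated 1 and 708 without TWEAK 1). In MDA-MB-453 (main 61) they numbered 4 by within-list percentile, 0 with a peak in all 8 lists, 12 by -log10 q, 32 by covered length and 64 to 96 without 1 library (92 without untreated 2 and 96 without TWEAK 1). Without scaling the median of all windows moved by -0.34 between the lines, and 2747 windows were called higher and 7468 lower in SKBR3, against 5199 and 4954.

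Among the members the scaled log2 line difference changed sign from fold enrichment to -log10 q for MED1 (2.90), PPP1R1B (0.42) and PGAP3 (0.12). So it did for ERBB2 (0.11), MIEN1 (0.85) and GRB7 (0.85). As listed, mean -log10 q was lower in SKBR3 for PPP1R1B (43.6 against 54.5), PGAP3 (563 against 789) and ERBB2 (557 against 789). It was higher for MED1, MIEN1 and GRB7. The -log10 q was not fitted without scaling. To covered length the difference changed sign for PPP1R1B (2.59), PGAP3 (0.88), ERBB2 (1.32), MIEN1 (2.03) and GRB7 (1.30). Within 1 kb of a start it changed sign for PPP1R1B (2.65), PGAP3 (0.36) and MIEN1 (0.81), and over the gene body alone for MIEN1 (0.78). The cause was not tested.

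Replicate numbers are shared between groups, but the labels tie no batch or day to a number. Deviations of same-numbered libraries correlated at 0.24 for SKBR3 but -0.01 for MDA-MB-453. With 2 pairs a line, these values do not settle whether the numbers pair the libraries. With the replicate block 9 of 10 members were called between the lines, 10479 windows in all, and 271 and 47 windows with TWEAK in SKBR3 and MDA-MB-453. A block cannot change the difference of means of the covered length in this balanced design (-9.59 and 2.32 kb with TWEAK). Depth is unknown, so a peak absent from a list may lie just under the caller's threshold.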
